A study of Homo sapiens with 26 samples.

Results

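The feedback regulators of p53 described here are 6 genes of the 19812 protein-coding genes with an annotated promoter. They are MDM2, MDM4, PPM1D, CCNG1, TP63 and TP73. They were chosen by name, and every H3K27ac or H3K4me1 peak that overlapped the gene body or the 50 kb to each side of it on GRCh37 was taken in all 16 peak lists. These windows held 81 of the 87570 H3K27ac regions and 75 of the 110269 H3K4me1 regions obtained by merging overlapping peaks of a mark. By gene, the H3K27ac regions numbered 19 for MDM2, 14 for MDM4, 7 for PPM1D, 6 for CCNG1, 1 for TP63 and 34 for TP73. The H3K4me1 regions numbered 14, 10, 21, 6, 7 and 17 in the same order.

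The p53 protein is a transcription factor that is held in check by products of its own target genes. MDM2 is the ubiquitin ligase that marks p53 for degradation, and MDM4 is its relative that masks the transactivation domain of p53. PPM1D encodes the phosphatase Wip1, which removes activating phosphates from p53 and from the kinases upstream of it, and CCNG1 encodes cyclin G1, which recruits a phosphatase to MDM2. TP63 and TP73 encode the other members of the p53 family, and each has a second promoter inside the gene whose products (the delta N forms) lack the transactivation domain and can oppose p53. MDM2 likewise has a p53-responsive promoter in the first intron, so main and internal promoters were treated apart.

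ChIP-seq was performed in HCT116, a colorectal cancer line with wild-type p53, for H3K27ac (found on active promoters and enhancers) and H3K4me1 (found on enhancers that are primed or active). Parental cells (WT) had received the vehicle DMSO (0 h) or Nutlin-3a, an inhibitor that frees p53 from MDM2, for 1 h or 10 h, and both marks were profiled. H3K27ac was also profiled at 0 h and 1 h in the HCT116_RAD21 derivative, called the RAD21 line here. RAD21 is a subunit of cohesin. In the study's methods this derivative carries an inducible degradation tag on RAD21 and receives the auxin analogue 5-Ph-IAA as a pretreatment. The labels do not name that step for any library, the 0 h libraries included, although the peak names in its lists carry the letters KD. Each of the 8 groups had 2 lists, labelled as separate replicates, and the spread between them may in part be technical.

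The 10 H3K27ac lists held 31640 to 49127 peaks and the 6 H3K4me1 lists 84492 to 92943. They give no read counts, so the depth of the libraries is unknown. A peak was therefore placed by its percentile within its own list, ordered by the authors' −log10 p-value, with the strongest peak near 100. Among promoters with an H3K27ac peak the median percentile was 81.9 and 81.2 in the 2 WT 0 h lists. It was 80.8 and 84.6 in WT at 1 h, and 87.2 and 86.5 at 10 h. Percentiles of promoters thus drifted between lists, and those below are to be read beside these medians. In 3 H3K27ac lists (both WT 0 h lists and WT 1 h replicate 1) the peak names lacked the word input, which the other 7 carried. These 3 lists covered 30.7 to 31.9 Mb against 49.1 to 66.6 Mb in the other 7, and held 31640 to 33976 peaks against 39092 to 49127. They also held 3 or 4 peaks each on the mitochondrial chromosome, where the other 7 held 0. Whether these lists were processed in another way was not tested. No WT 10 h list shares its form of name with a 0 h list, so a term for the form rests there on WT 1 h, which has 1 list of each form. With that term the regions called at 10 h against 0 h fell from 3426 to 823 of 18757. Within the RAD21 line, 1 h and 0 h were compared within 1 form of name. Between the lines, the 0 h comparison sets lists named with input (RAD21 line) against lists named without it (WT). At 1 h, and in the difference of the 1 h changes, the forms are mixed in part. Form and line cannot be told apart at 0 h by these lists alone. The names in RAD21 line 0 h replicate 2 carry the tags of the replicates BR2 and BR3, and whether it holds pooled reads was not tested. The promoters of 6 of 7 epithelial markers carried H3K27ac in all 10 lists (VIL1 in none), and those of 7 markers of other cell types in none.

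A p53 response element was searched as a pair of adjacent decamers, each of 3 purines, C, 2 letters that are A or T, G and 3 pyrimidines, with the C and G of both decamers intact and at most 3 other mismatches. The 6 windows held 9 such matches for MDM2, 8 for MDM4, 14 for PPM1D, 6 for CCNG1, 13 for TP63 and 18 for TP73, on a motif that reads alike on both strands. Of the main promoters (1000 bp upstream to 200 bp downstream of the start) only that of PPM1D held a match, against 4.72% of the 19812 main promoters of protein-coding genes. Of the 4 internal promoters those of MDM2, MDM4 and TP73 held 1 each. A match was also found in 6.65% of 87565 windows of 250 bp to each side of an H3K27ac summit, so a match is only a description of the letters. The response elements named below are such matches, and binding of p53 to them was not tested. Elements with a changed C or G in a decamer, or with a spacer, were not sought, so a promoter may hold others. The stretches below show some of the matches that lay in the regions described next, on the plus strand of GRCh37 and with the 20 bases of the match in capitals. Further matches, in the region upstream of MDM2 and in gained regions downstream of CCNG1 and PPM1D, are not printed. The 100 bases before the internal start of MDM2 (chr12:69202682-69202781) and of TP73 (chr1:3607136-3607235) are given to show how near the match lies to each start. The others are MDM4 before the internal start (chr1:204494169-204494198), CCNG1 in the first part of the gene (chr5:162864927-162864956), PPM1D upstream of the gene (chr17:58677076-58677105) and a TP73 intron (chr1:3597784-3597813).
MDM2 internal promoter: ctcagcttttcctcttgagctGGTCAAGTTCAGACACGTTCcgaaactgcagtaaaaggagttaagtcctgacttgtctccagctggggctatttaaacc
TP73 internal promoter: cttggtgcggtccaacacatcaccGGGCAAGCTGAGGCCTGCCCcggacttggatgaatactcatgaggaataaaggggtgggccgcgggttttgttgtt
MDM4 internal promoter: tgtcaAGACATGTTCCAACATGTTGtagag
CCNG1 intron: tgtgaGCACAAGCCCAGGCTAGTCCgaggc
PPM1D main promoter: gtgcaGCACTTGTTCCGGCCAGCTCacaat
TP73 intron: gccgtGGGCAGGTCCAGGCCTGCCTgcctg
The match began 79 bp before the internal start in MDM2, 76 bp before it in TP73 and 444 bp before it in MDM4. The CCNG1 match, with 1 mismatch, began 357 bp downstream of the main start, and the PPM1D match, with 3 mismatches, 473 bp upstream of it. The other 4 matches had 2 mismatches each.

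MDM2 (chr12:69201957-69239324) carried a single strong H3K27ac peak over both of its starts, which lie 825 bp apart. In WT this peak stood at percentile 96.5 and 95.2 at 0 h (the values of the 2 replicates), at 98.8 and 99.3 at 1 h, and at 98.3 and 96.2 at 10 h. The RAD21 line gave 96.1 and 98.1 at 0 h and 99.2 and 99.3 at 1 h. The 1 h lists thus lay above the 0 h lists in both lines, without overlap, while the 10 h lists overlapped those at 0 h. In bulk lists such as these, more cells with a mark and more of the mark per cell cannot be told apart.

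**Figure D1:**
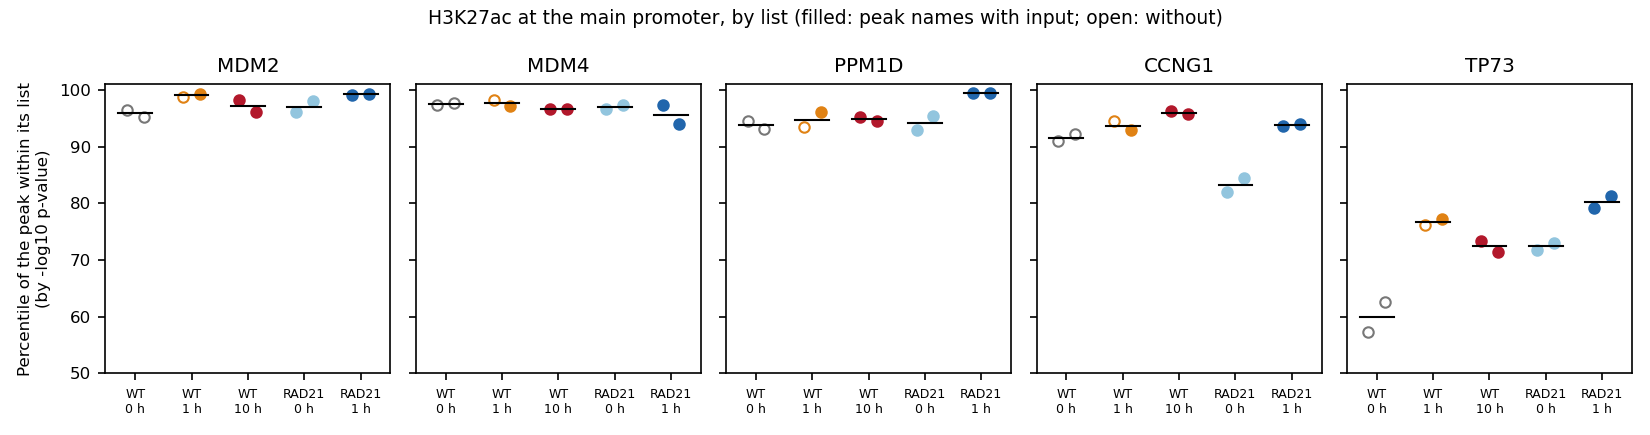
Percentile within its list of the strongest H3K27ac peak at the main promoter of 5 genes (vertical axis, from 50 to 100), by group (horizontal axis), with 1 point per list, filled where the peak names carry the word input and open where they do not, and a line at the mean of the 2 replicates. TP63 had no promoter peak and is not drawn, PPM1D rises to 99.5 in both RAD21 line 1 h lists, and CCNG1 is lowest in the RAD21 line 0 h lists at 82.0 and 84.5.

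The change was tested with limma on normal scores of the ranks, where 1 unit is 1 SD of the scores. The MDM2 promoter region (chr12:69200550-69206016) rose by 0.65 ± 0.163 (SE) at 1 h in WT (adjusted p = 0.00984) and by 0.62 ± 0.163 at 1 h in the RAD21 line (adjusted p = 0.0131). The 1 h changes of the lines differed by −0.03 ± 0.230 (adjusted p = 0.931). At 10 h it differed from 0 h by 0.05 ± 0.163 (adjusted p = 0.858) and it fell by 0.60 from 1 h to 10 h (adjusted p = 0.0131). Among lists named alike, the 1 h difference in WT was 0.591 and that from 1 h to 10 h −0.668. By fold the promoter stood at percentile 95.8 and 91.3 at 0 h in WT and at 88.8 and 99.7 at 1 h, so that WT 1 h replicate 1 lay below both 0 h lists named like it. Ranked by fold, the change at 1 h was 0.42 in WT (adjusted p = 0.674) and 0.74 in the RAD21 line (0.603). The call at 1 h in WT was lost without WT 0 h replicate 2 (adjusted p = 0.0958), that in the RAD21 line without RAD21 line 0 h replicate 1 (0.142), 1 h replicate 1 (0.0539) or 1 h replicate 2 (0.0958), and that from 1 h to 10 h without WT 10 h replicate 2 (0.159).

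In all 10 lists the summit lay 204 to 382 bp downstream of the main start, and hence 443 to 621 bp upstream of the internal start and 373 to 551 bp from the response element. The summit thus lay between the 2 starts in each of the 10 lists. The right end of the peak differed more. It reached 99 and 170 bp beyond the internal start at 0 h in WT, 185 and 2038 bp at 1 h, and 3201 and 2211 bp at 10 h. Its end in the RAD21 line lay 506 and 456 bp beyond that start at 0 h and 1477 and 2176 bp at 1 h. Later lists thus reached farther into the gene than the 0 h lists of the same line in every case, although WT 1 h replicate 1, named like the 0 h lists, did so only slightly.

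Since the median promoter peak was wider in the lists named with input (1973 to 2417 bp, against 1328 to 1372 bp in the other 3), the width of the MDM2 peak was set among all promoters with a peak in the same list. At 0 h in WT it was narrow, at 1018 and 1088 bp and at percentiles 27.4 and 31.2 of widths. At 1 h it was 1774 and 4140 bp wide, at percentiles 80.8 and 91.1, and at 10 h 4967 and 4202 bp, at percentiles 92.1 and 88.6. Its width in the RAD21 line went from 2663 and 2498 bp (percentiles 77.0 and 69.3) to 3710 and 4385 bp (83.6 and 87.8). The rise at 1 h in WT was thus also seen between the 3 lists that share the form of name without input.

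Beyond the promoter, H3K27ac peaks spread along the MDM2 gene body. They covered 2.48% and 3.30% of it at 0 h in WT, 2.71% and 13.9% at 1 h, and 27.5% and 40.0% at 10 h. The RAD21 line had 3.56% and 4.36% of it covered at 0 h, and 14.4% and 22% at 1 h. Among 20098 protein-coding gene bodies in the same list, MDM2 stood at percentiles 56.6 and 63.4 at 0 h in WT and at 86.7 and 92.1 at 10 h. The mean rise at 10 h was 30.8 percentage points, reached or passed by 1215 genes (MDM2 included), and that in the RAD21 line at 1 h was 14.2 points, reached or passed by 706 genes. The median changes over all genes in these comparisons were 0.525 and 0.0813 points, and the means 6.16 and 1.67 points. The WT 0 h and 10 h lists share no form of name, so the rise at 10 h cannot be told apart from a difference of form. At 1 h in WT the rise of 5.42 points came from replicate 2 alone, with a difference of 11 points there and of −0.185 in replicate 1.

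**Figure D2:**
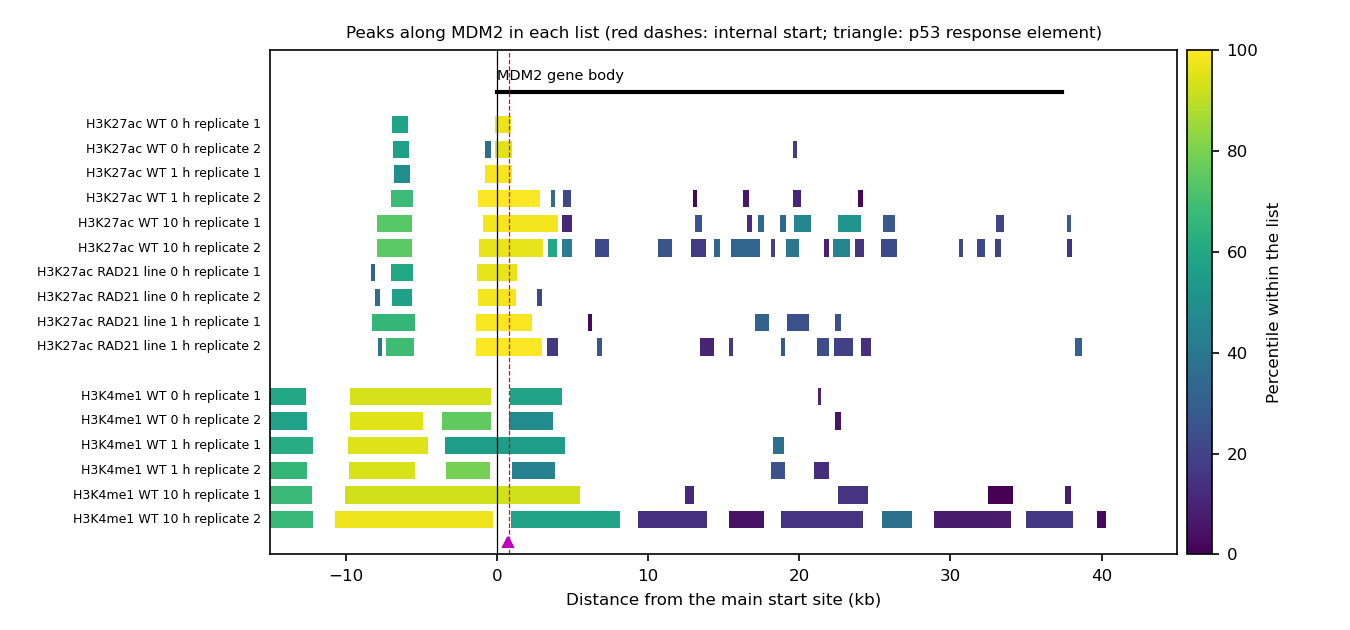
Peaks around MDM2 in each of the 16 lists, by distance from the main start site in kb (horizontal axis), coloured by percentile within the list. The solid line marks the main start, the red dashes the internal start 825 bp away and the triangle the response element; H3K27ac peaks are scattered along the gene body in the WT 10 h lists and, to a lesser extent, in the RAD21 line 1 h lists.

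H3K4me1 moved along the same gene body. It covered 9.86% and 8.83% of MDM2 at 0 h, 14.0% and 13% at 1 h, and 26% and 77.3% at 10 h. The mean rise at 10 h was 42.4 points, reached or passed by 17 of the 20098 genes (MDM2 included), beside a median of −0.121. Replicate 2 alone gave a rise of 68.0 points, reached by 8 genes, and replicate 1 alone 16.7 points, reached by 80, so the size rests on replicate 2 while both lie above every earlier list. The H3K4me1 peaks inside the gene body were weak, and of 3 regions gained at 10 h the strongest (chr12:69211328-69215880) stood at percentiles 11.6 and 14.0. The interval between the 2 starts held almost no H3K4me1 in WT at 0 h, where 1 peak ended 395 and 404 bp before the main start and the next began 59 bp after the internal start in replicate 1 and 12 bp before it in replicate 2. A single peak bridged the interval in WT 1 h replicate 1 and in WT 10 h replicate 1, and it was not bridged in the other replicates.

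MDM4 (chr1:204485507-204527248) had a main promoter that was among the strongest of every list and a weak internal one. At the main promoter H3K27ac stood at percentile 97.3 and 97.7 at 0 h in WT, 98.3 and 97.2 at 1 h, and 96.7 and 96.6 at 10 h. The RAD21 line gave 96.7 and 97.3 at 0 h and 97.3 and 94.1 at 1 h, so that the groups overlapped in part and no contrast passed the test. The largest of the Nutlin-3a changes in WT were −0.35 ± 0.159 from 1 h to 10 h (limma adjusted p = 0.108) and −0.33 ± 0.159 from 0 h to 10 h (0.157).

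The internal promoter of MDM4, 9111 bp downstream of the main start, was called in fewer lists. H3K27ac was not called there in either WT 0 h list, stood at percentile 5.04 and 27.1 at 1 h, and at 60.0 and 62.0 at 10 h. The peak widened from 269 and 969 bp at 1 h to 2313 and 2256 bp at 10 h, where it crossed the internal start in both lists. In the RAD21 line it was present at 0 h, at percentiles 18 and 35.0, and at 1 h at 46.2 and 41.0, in no case crossing the start. The region was called in 8 of 10 lists, so it entered only the fit on regions called in at least 5. Missing calls took the lowest rank there. In that fit it changed by 0.45 at 1 h and 1.14 at 10 h in WT. Both missing calls were WT 0 h lists, which are named without input and were given the same rank. The WT sizes depend on that rank, and a p-value for them would not measure a gain, so none is given. In the RAD21 line the change at 1 h was 0.22 (limma adjusted p = 0.394, from a spread that includes the tied WT lists). Over these 8 lists the summit lay 51 to 814 bp from the response element, with a median of 350.5 bp.

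**Figure D3:**
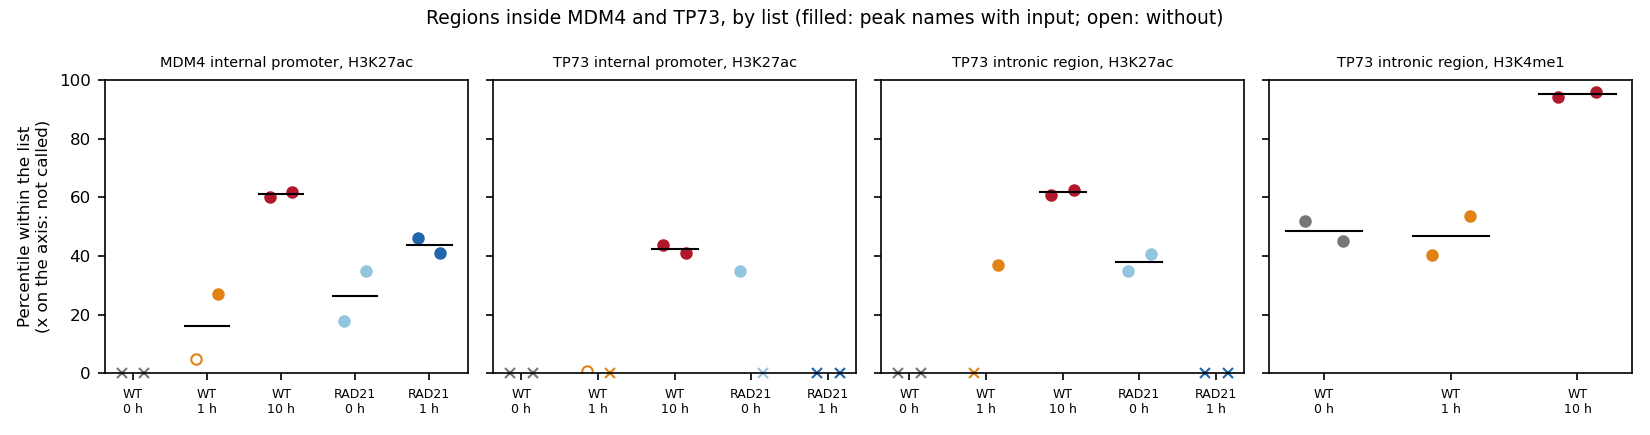
Percentile within the list (vertical axis, 0 to 100) of the H3K27ac peak at the internal promoters of MDM4 and TP73 (the region over the start) and of the H3K27ac and H3K4me1 peaks at a region in a TP73 intron, by group (horizontal axis), with 1 point per list, filled where the peak names carry the word input, a cross on the axis where no peak was called and a line at the mean where both lists had a peak. The WT 10 h lists are highest in each panel, at 60.0 and 62.0 for MDM4.

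H3K4me1 flanked the main promoter of MDM4 at 0 h, with peaks that ended 172 and 316 bp before the start. At 1 h 1 peak of 8198 and 8192 bp spanned it in both replicates, and at 10 h the peaks again ended 300 and 266 bp before it. The median H3K4me1 promoter peak was also wider at 1 h (3180 and 3115 bp) than at 0 h (2723 and 2437 bp) and 10 h (2217 and 2632 bp). At the internal promoter H3K4me1 was already present at 0 h, at percentiles 67.4 and 66.1, and reached past the start only at 10 h. Upstream of MDM4 a distal H3K27ac region (chr1:204474942-204477530) fell. It stood at percentile 58.7 and 63.8 at 0 h in WT and at 56.2 and 63.4 at 10 h, and at 71.6 and 76.3 in the RAD21 line at 0 h against 53 and 55.2 at 1 h. It fell by 1.06 ± 0.205 in the RAD21 line at 1 h (limma adjusted p = 0.00219) and by 0.81 ± 0.205 at 10 h in WT (adjusted p = 0.0175; −1.27 with the form of the peak names as a term), where the percentiles overlap and the call was lost without WT 0 h replicate 1 (0.0577), WT 0 h replicate 2 (0.140) or WT 10 h replicate 1 (0.146). Its neighbour at chr1:204478052-204479345, not called at 0 h in WT, stood at percentiles 67.0 and 61.6 at 10 h and at 31.0 and 53.6 in the RAD21 line at 0 h.

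PPM1D (chr17:58677554-58743641) differed between the lines. At its promoter H3K27ac stood at percentile 94.6 and 93.2 at 0 h in WT, 93.5 and 96.1 at 1 h, and 95.2 and 94.5 at 10 h, and these groups overlapped. In the RAD21 line it stood at 93.0 and 95.4 at 0 h and at 99.5 in both lists at 1 h, above every other list. The rise of 1.17 ± 0.128 at 1 h in the RAD21 line had an adjusted p of 5.2e-05 (limma), against 0.06 ± 0.128 in WT at 1 h (adjusted p = 0.753) and −0.11 at 10 h (0.560). The difference between the 1 h changes of the lines was itself tested and came to 1.11 ± 0.181 (adjusted p = 0.00101). At 1 h the RAD21 line stood 1.01 ± 0.128 above WT (adjusted p = 0.000894), and 0.934 above the 1 WT list named with input. No list left out ended these 3 calls, but fitting only the lists compared ended the last (adjusted p = 0.0788) and ranking by fold ended all 3 (adjusted p = 0.152, 0.293 and 0.121, with differences of 0.96, 0.99 and 1.51). By fold the promoter stood at percentile 91.8 and 94.5 in the RAD21 line at 0 h and at 98.9 and 99.0 at 1 h, again without overlap.

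**Figure D4:**
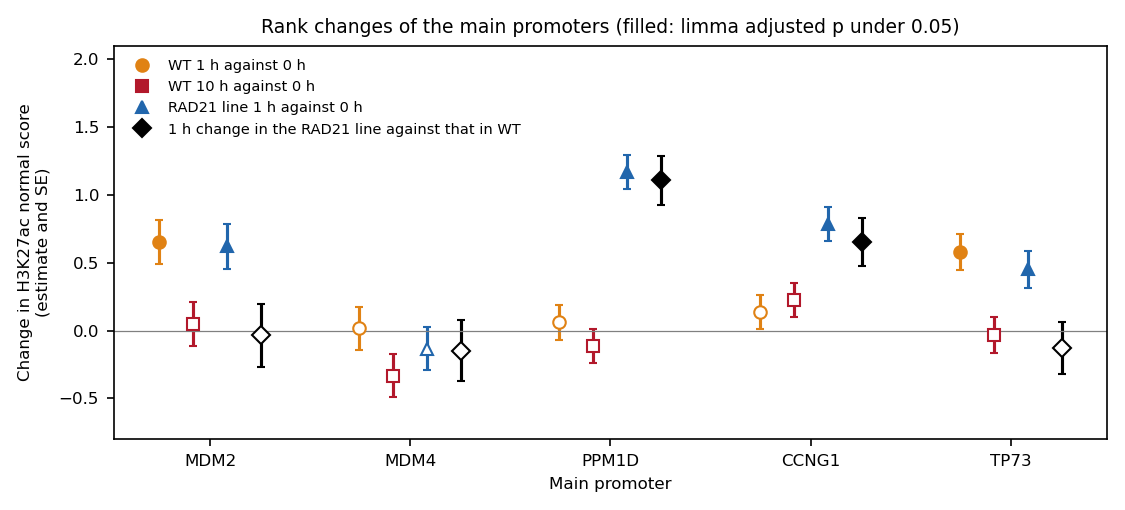
Change in the H3K27ac normal score (vertical axis, estimate and SE) of 5 main promoters in 3 treatment comparisons and in the difference between the lines, filled where the limma adjusted p is under 0.05. PPM1D rose in the RAD21 line by 1.17 and lies near 0 in WT, whereas MDM2 moved by 0.65 and 0.62 in the 2 lines.

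The summit at PPM1D lay 358 to 443 bp downstream of the start in 8 lists and 328 and 334 bp upstream of it in WT 1 h replicate 2 and RAD21 line 0 h replicate 2. The median distance to the match printed above was 844.5 bp over 10 lists. H3K4me1 stayed upstream of the start in all 6 lists, as peaks of 733 to 1469 bp that ended 224 to 595 bp before it. The window also holds the promoter of its neighbour BCAS3 (chr17:58753903-58755994), which stood at percentile 69.4 and 70.9 at 0 h in WT, 55.4 and 56.0 at 1 h, and 79.5 and 78.7 at 10 h. It fell by 0.82 ± 0.175 at 1 h (limma adjusted p = 0.00428) and was 0.78 higher at 10 h than at 1 h (0.00487), without overlap of the groups. Without WT 1 h replicate 2 the fall was 0.52 and the later rise 0.48, and without WT 1 h replicate 1 they were 1.12 and 1.08, with all 4 adjusted p-values under 0.05. Fitting only the lists compared ended the call of the fall (adjusted p = 0.0504), and ranking by fold ended both (0.386 and 0.266).

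CCNG1 (chr5:162864575-162873157) was the member with the lowest untreated acetylation in the RAD21 line relative to WT. Its promoter stood at percentile 91.0 and 92.2 at 0 h in WT, 94.6 and 92.9 at 1 h, and 96.3 and 95.7 at 10 h. In the RAD21 line it stood at 82.0 and 84.5 at 0 h, below all other lists, and at 93.6 and 94.0 at 1 h. The RAD21 line was thus 0.70 ± 0.125 below WT at 0 h (limma adjusted p = 0.000855), a call that was lost with the form of the peak names as a term (−0.40, adjusted p = 0.0756). It rose by 0.78 ± 0.125 at 1 h (adjusted p = 0.000631), and the 1 h change exceeded that in WT by 0.65 ± 0.177 (adjusted p = 0.0185), a call lost without WT 0 h replicate 2 (0.0848), RAD21 line 0 h replicate 1 (0.0754), 1 h replicate 1 (0.0525) or 1 h replicate 2 (0.0730). The changes within WT, of 0.13 at 1 h (adjusted p = 0.453) and 0.23 at 10 h (0.216), did not pass the test. The 10 h percentiles lay above those at 0 h, as did the median over promoters (87.2 and 86.5 against 81.9 and 81.2). The summit lay 97 to 192 bp from the response element printed above, with a median of 123.5 bp over 10 lists.

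H3K4me1 at CCNG1 changed in extent at 1 h. At 0 h the promoter peak was 1125 and 973 bp wide and ended 271 and 275 bp before the start, and at 10 h it was 932 and 855 bp wide and ended 263 and 399 bp before it. At 1 h it was 3780 and 3815 bp wide and crossed the start in both lists. The median H3K4me1 promoter peak was also wider at 1 h, at 3180 and 3115 bp. It was 2723 and 2437 bp at 0 h and 2217 and 2632 bp at 10 h. Among promoters the CCNG1 width stood at percentiles 19.3 and 17.6 at 0 h, 59.3 and 61.4 at 1 h, and 19.4 and 10.6 at 10 h. The share of the gene body under H3K4me1 was 14.8% and 14.6% at 0 h, 30.1% and 26.7% at 1 h, and 18.1% and 13.3% at 10 h. The mean rise of 13.7 points at 1 h was reached or passed by 533 of 20098 genes, beside a median of 0.402. The strongest H3K4me1 peak of the merged promoter region (chr5:162863052-162867159) stood at percentile 81.0 and 74.9 at 0 h, 59.1 and 76.3 at 1 h, and 89.2 and 89.0 at 10 h, a difference from 1 h to 10 h of 0.94 ± 0.218 (limma adjusted p = 0.0318). This call was lost without WT 1 h replicate 1 (0.213), WT 10 h replicate 1 (0.176) or WT 10 h replicate 2 (0.122).

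**Figure D5:**
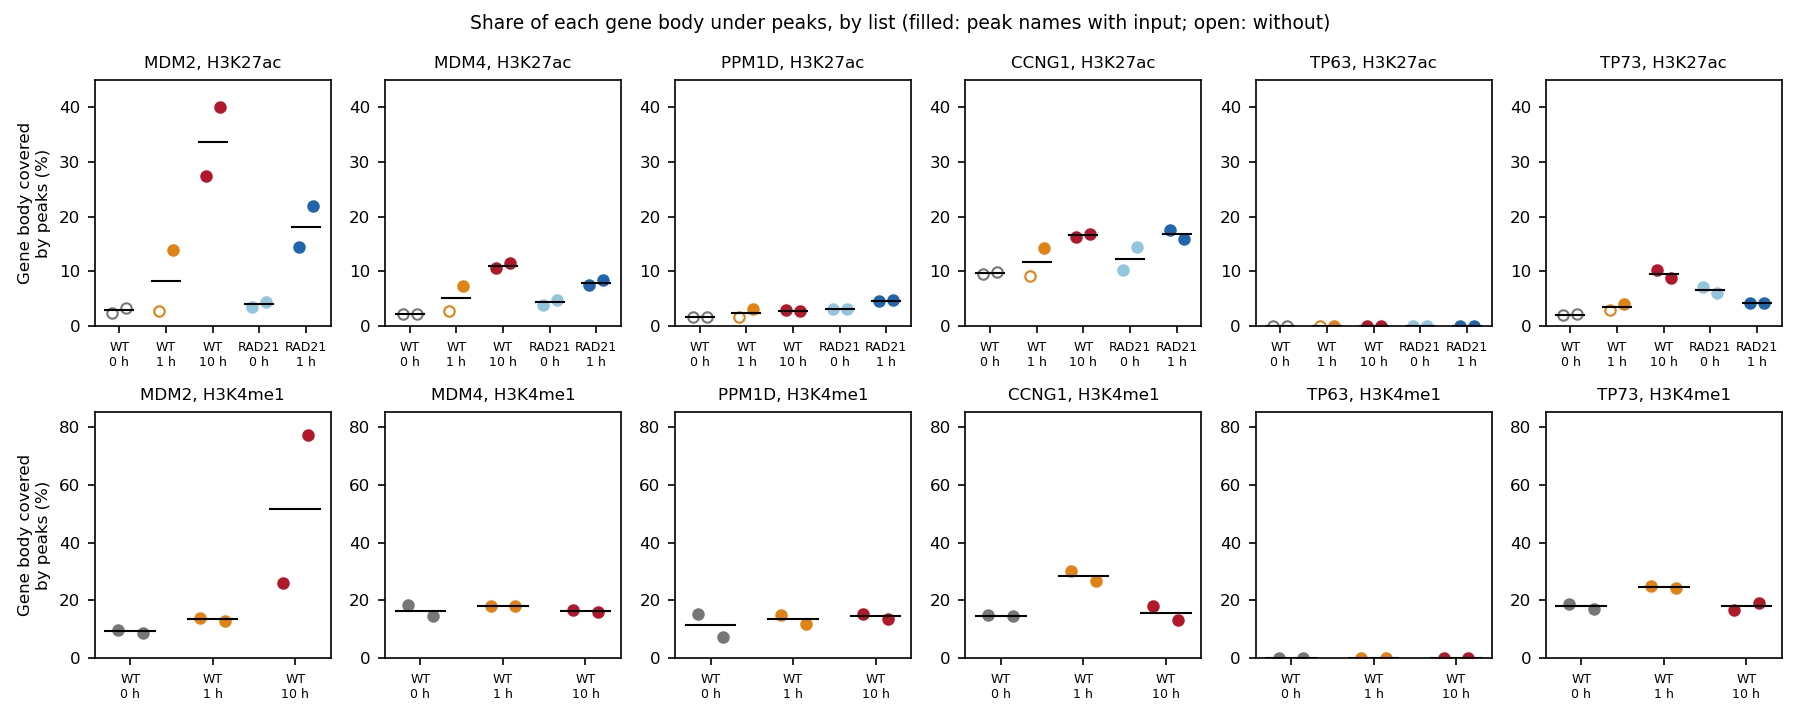
Share of each gene body under H3K27ac peaks (upper panels) and H3K4me1 peaks (lower panels), in percent, by group, with 1 point per list, filled where the peak names carry the word input, and a line at the mean. MDM2 rises at 10 h for both marks, H3K4me1 at CCNG1 is highest at 1 h, and TP63 stays at or near 0.

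TP73 (chr1:3569080-3652765) had the weakest main promoter of the 5 that carried H3K27ac. It stood at percentile 57.3 and 62.7 at 0 h in WT, 76.2 and 77.3 at 1 h, and 73.4 and 71.4 at 10 h. The RAD21 line gave 71.8 and 73.1 at 0 h and 79.2 and 81.3 at 1 h. The treated lists lay above the 0 h lists of their line without overlap. The rise at 1 h was 0.58 ± 0.135 in WT (limma adjusted p = 0.00706) and 0.45 ± 0.135 in the RAD21 line (0.0249). From 1 h to 10 h it fell by 0.61 (0.00453), and at 10 h it differed from 0 h by −0.03 on the scale of the scores, although its percentiles were higher. The percentiles place a peak among all peaks of its list, which differ in number, and the scores place it among the regions called in all lists. Among lists named alike the 1 h difference in WT was 0.695. The call in WT at 1 h was lost without WT 0 h replicate 1 (0.0844), and the call in the RAD21 line when any of its 4 lists was left out (0.0708 to 0.177).

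The internal promoter of TP73 (chr1:3606484-3607636), which gives the delta N form, was at percentile 43.9 and 41.2 in the WT 10 h lists. It was not called at 0 h in WT or in WT 1 h replicate 2 and stood at 0.928 in WT 1 h replicate 1 and at 34.9 in RAD21 line 0 h replicate 1. A separate region upstream of it (chr1:3605786-3606268) was called in RAD21 line 0 h replicate 2 (35.0) and 1 h replicate 1 (24.9). The peak crossed the internal start by 10 and 400 bp at 10 h and ended before it in the others, and its summit lay 227 to 527 bp from the response element. H3K4me1 was called there in WT 10 h replicate 1 alone, at percentile 18.6.

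An intronic region of TP73 at another annotated start (chr1:3597034-3599852) stood at percentile 60.8 and 62.5 at 10 h. It was not called at 0 h in WT or in WT 1 h replicate 1, stood at 37.1 in WT 1 h replicate 2, and in the RAD21 line was called at 0 h (34.9 and 40.7) and not at 1 h. Its summit lay 31 to 1550 bp from the response element printed above, with a median of 89.0 bp over 5 lists. The H3K4me1 region at the same place (chr1:3596722-3598508) stood at percentile 52.0 and 45 at 0 h, 40.2 and 53.7 at 1 h, and 94.3 and 95.8 at 10 h. It rose by 1.97 ± 0.232 from 0 h to 10 h (limma adjusted p = 0.00164) and by 2.14 ± 0.232 from 1 h (0.000379). Leaving out WT 10 h replicate 1 or 2 ended the first call (0.0779 and 0.0767), with rises of 2.03 and 1.91.

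An intronic region nearer the TP73 start (chr1:3585456-3586356) differed between the lines at 0 h. It stood at percentile 77.9 and 74.5 at 0 h and 42.3 and 42.9 at 1 h in the RAD21 line, while in WT it was not called at 0 h and stood at 19.7 and 37.5 at 1 h and 31.3 and 7.26 at 10 h. Since it was called in 8 of 10 lists it entered only the fit on regions called in at least 5, where a missing call takes the lowest rank. In that fit it fell by 1.05 at 1 h in the RAD21 line, where it was called at 0 h and 1 h. The spread is pooled over all lists and includes the WT 0 h lists, both set to 1 rank. A p-value for this fall may thus be too small, and none is given. At 0 h it was 1.84 higher in the RAD21 line than in WT. The 2 missing calls were the WT 0 h lists, both set to 1 rank, so the size depends on that rank and a p-value would not measure the difference. Those WT lists are also named without input and the RAD21 line lists with it. Upstream of TP73 the H3K4me1 region at chr1:3520141-3522991 fell at 1 h, from percentiles 83.9 and 90.4 to 58.0 and 55.4, by 1.20 ± 0.201 (limma adjusted p = 0.0175). That call was lost when any of the 4 lists compared was left out (0.0874 to 0.163).

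TP63 (chr3:189349178-189615065) carried no peak of either mark at its main or internal promoter in any list. Its body was free of H3K27ac in all 10 lists, and H3K4me1 covered 0.000 to 0.141% of it. The single H3K27ac region of the window (chr3:189654612-189656543), downstream of the gene, was called in 9 of 10 lists at percentiles 32.3 to 61.3 and overlapped an H3K4me1 region at percentiles 83.3 to 88.3. Inside the gene H3K4me1 was called at chr3:189542356-189542708 at 10 h alone (percentiles 16.2 and 5.82) and at chr3:189505370-189505796 at 0 h and in WT 1 h replicate 1.

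Over the 6 windows, 15 of the 81 H3K27ac regions and 36 of the 75 H3K4me1 regions were called in all lists of their mark and so entered the tests of rank, against 18757 and 60476 regions in all. At 1 h in WT 4 of the 15 changed, 3 up and 1 down, beside 29.1% of all regions. At 10 h 1 changed (down), beside 18.3%, and from 1 h to 10 h 5 changed, 2 up and 3 down, beside 32.4%. At 1 h in the RAD21 line 7 changed, 5 up and 2 down, beside 27.7%. Against WT, 2 were lower in the RAD21 line at 0 h, beside 37.5%, and at 1 h 2 were higher and 1 lower, beside 11.8%. The 1 h change differed between the lines for 4, beside 22.7%. With 1 list left out the count in the RAD21 line at 1 h was 3 to 4 (3 without 1 h replicate 1 and 4 without each of the other lists of the line), and that at 10 h in WT was 0 without WT 0 h replicate 1, WT 0 h replicate 2 or WT 10 h replicate 1. The median change over the 15 regions was 0.02 at 1 h and 0.03 at 10 h in WT and 0.26 in the RAD21 line, beside −0.01, −0.04 and 0.04 over all regions tested.

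Ranking by fold and not by p-value ended all of these H3K27ac calls but 1 of the 2 at 0 h, with every direction kept. Under that ranking the test called 0 regions of the whole table at 1 h in WT (3706 at an unadjusted p under 0.05) and 0 in the RAD21 line at 1 h (2667), and a count model could not be run on lists without counts. Besides those described, the called regions were the promoter of PIK3C2B in the MDM4 window (chr1:204462446-204464579), which rose by 0.43 at 1 h in WT and fell by 0.52 from 1 h to 10 h, and, named after their values were seen, a region upstream of MDM2 (chr12:69193662-69196555) and the promoter of TPRG1L (chr1:3540331-3542655). The MDM2 upstream region stood at percentile 59.6 and 57.0 in the RAD21 line at 0 h and at 66.3 and 68.9 at 1 h, a rise of 0.55 (limma adjusted p = 0.0249) that was lost without RAD21 line 0 h replicate 2 (0.171), 1 h replicate 1 (0.0665) or 1 h replicate 2 (0.183). The PIK3C2B calls were lost without WT 0 h replicate 1 (0.224) or WT 1 h replicate 2 (0.0795) at 1 h, and without WT 10 h replicate 1 (0.0615) or 2 (0.0652) from 1 h to 10 h. At TPRG1L the fall of 0.38 in the RAD21 line was lost when 0 h replicate 1, 0 h replicate 2 or 1 h replicate 1 was left out (0.0888 to 0.271), and the rise of 0.43 from 1 h to 10 h without WT 10 h replicate 1 (0.142). For H3K4me1, 1 of the 36 regions changed at 1 h beside 0.595% of all, 1 at 10 h beside 0.638%, and 2 from 1 h to 10 h beside 3.05%.

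Gains and losses of whole regions were counted where both later lists and neither 0 h list had a peak, or the reverse, without a test. At 1 h in WT 4 of 81 H3K27ac regions were gained, beside 1.51% of all regions, and 0 were lost, beside 1.32%. Those gained were the MDM4 internal promoter, the TP73 intron at chr1:3585456-3586356, a region downstream of PPM1D (chr17:58759850-58761294, percentiles 38.1 and 49.0) and a weak one upstream of it (chr17:58628780-58629510, percentiles 2.60 and 10.8). At 10 h 20 were gained, beside 11.4%, and 0 lost, beside 1.90%. The 20 comprised 7 at MDM2, 3 at MDM4, 1 at CCNG1 and 9 at TP73, with none at PPM1D or TP63, and 15 of them lay in gene bodies.

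Of the 20 regions gained at 10 h, 9 were also called in WT 1 h replicate 2, which shares the form of name of the 10 h lists, 11 in at least 1 list of the RAD21 line and 5 in both of its 0 h lists, and 8 in the 10 h lists only. When both lists had to reach 5 in −log10 q-value, 6 were left, which include the internal promoters of MDM4 and TP73. The others were the TP73 intron at chr1:3597034-3599852, the region upstream of MDM4 at chr1:204478052-204479345, a region inside MDM2 (chr12:69224215-69226703, percentiles 52.0 and 45.5) and a region downstream of CCNG1 (chr5:162881441-162881927, percentiles 50.2 and 44.8). The last was called in no other list. Without WT 1 h replicate 1 the gains at 1 h numbered 18, and without WT 10 h replicate 1 those at 10 h 32.

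At 1 h in the RAD21 line 6 regions were gained, beside 4.60%, and 3 were lost, beside 2.87%. The gains were 4 at MDM2, led by chr12:69220672-69222719 (percentiles 24.9 and 27.3), and 2 at MDM4, led by chr1:204534470-204535088 (15.7 and 33.2). All 3 losses were at TP73. No gain or loss in this line reached the stricter q-value. Without RAD21 line 1 h replicate 1 or 2 the gains numbered 11 and 10, and without either 0 h list the losses numbered 9. For H3K4me1, 4 of 75 regions were gained and 2 lost at 1 h, beside 3.30% and 1.75%, and 4 gained and 4 lost at 10 h, beside 2.63% and 2.28%. All of these were weak, none reached the stricter q-value, and the highest percentile among them was 28.9. Without WT 10 h replicate 1 the gains at 10 h numbered 10, and without WT 1 h replicate 2 those at 1 h also 10.

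Other genes of the pathway were read at their main promoters from lists chosen by name. Of 18 other p53 regulators 17 could be tested for H3K27ac, and of 26 other p53 targets 24. At 10 h in WT 1 regulator rose and none fell, with a median of −0.02, while 7 targets rose and none fell, with a median of 0.27. Of all 9544 promoters tested 5.02% rose and 10.5% fell, with a median of −0.08, and of the 5 member promoters none passed the test, with a median of −0.03. The regulator that rose was TP53INP1, a p53-induced cofactor of p53, by 0.67 ± 0.181 (limma adjusted p = 0.0239). The lowest were USP10, a deubiquitinase of p53, at −0.31 (0.166) and RPL11, a ribosomal protein that binds MDM2, at −0.28 (0.353).

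Among the targets AEN, an apoptosis-enhancing nuclease, rose by 1.45 ± 0.211 (adjusted p = 0.00111) and PHLDA3, an inhibitor of AKT, by 1.26 ± 0.141 (0.000224) at 10 h. The lowest were SESN2 at −0.36 (0.0716) and FDXR at −0.36 (0.107). At 1 h in WT 2 regulators rose and 2 fell, 8 targets rose and 2 fell, and 2 members rose, beside 16.6% and 16.9% of all promoters. In the RAD21 line at 1 h 4 regulators rose and 1 fell, 6 targets rose and 2 fell, and 4 of the 5 members rose and none fell, beside 17.4% and 13.1%. The members' median was 0.62 there, against 0.18 for the regulators, 0.23 for the targets and 0.08 for all promoters. For H3K4me1 at 10 h, 1 of 24 targets rose, and none of 16 regulators or 5 members passed the test in either direction.

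The promoters whose H3K27ac scores followed those of a member most closely over the 10 lists were sought among 9544 promoter regions, as a description without a test. For MDM2 they were BMP1 (Pearson r = 0.979), the shared promoter of CDNF, MSANTD7 and HSPA14 (0.961) and SECTM1 (0.954). For PPM1D they were those of NPLOC4 and TSPAN10 (0.962), of SUGP2 and ARMC6 (0.957) and of SYNGR2 (0.956). CCNG1 was followed by FAM50A (0.977), MBD3L3 with ZNF557 (0.958) and UTP14A (0.958), and TP73 by RNPEP (0.962), GPD2 (0.962) and POLD1 (0.961). MDM4, whose scores ranged over only 0.744, had FAXC at 0.949 and L3MBTL2 and SUPT3H at 0.911. The 10 points share their groups and the form of the peak names.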

How the data were processed

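Each of the 16 libraries came as 1 peak list from the authors, narrow peaks for H3K27ac and broad peaks for H3K4me1. The submitters' processing notes name MACS2 (version 2.2.7.1), Bowtie2 (version 2.3.2), deepTools (version 3.2.1), Trim Galore (version 0.6.6), SAMtools and hg19 (GRCh37.p13). The deposited columns used were the fold enrichment and, as −log10, the q-value and p-value of each peak. In the study's methods an input sample was the control for peak calling. Which control the lists named without input had, and whether 1 list holds pooled reads, was not tested. The lists give no counts, so depth is unknown and no counting interval can be given. The 10 input libraries were not analysed here.

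Overlapping peaks of a mark were merged into regions, and the strongest peak stood for its region. Ranks by −log10 p among regions with a peak in every list of a mark were turned into normal scores and tested with limma 3.58.1 (R 4.3.3) in 1 fit per mark over all its lists, with Benjamini-Hochberg adjustment at 0.05 over all regions. In simulated data with 200 regions changed by 1, the H3K27ac fit recovered 88.5% for 1 h against 0 h in WT among 18757 regions and the H3K4me1 fit 47.5% among 60476. Of the calls made there, 5.85% and 9.52% were false. The simulated lists held no effect of the form of the peak names. A promoter comprised the 1000 bp before and the 200 bp after an annotated start. Gained and lost regions were counted without a test.

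Groups and replicates came from the labels. Named were each main and internal promoter, the most significant region of each window, mark and direction, the strongest gained and lost region of each window, the 3 promoters most like each member, and in each pathway list the 2 largest and 2 smallest changes at 10 h in WT; 1 gene this rule would name is not reported here, and other regions are said to be named after their values were seen. The members and lists were chosen with earlier results of these data known. Alternatives were the fold as the measure ranked, the widest peak, more regions, a replicate block, fewer lists, each list left out, the form of the peak names as a term, a stricter q-value and a larger overlap. Coverage by single lists and the calls of gained regions in other lists were added after seeing the data.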

Additional observations from a re-analysis of the deposited data

Results flagged for a closer look

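For 4 H3K27ac regions the 1 h change differed between the RAD21 line and WT in the limma interaction test. It was higher in the RAD21 line at the PPM1D promoter by 1.11 (adjusted p = 0.00101) and at the CCNG1 promoter by 0.65 (0.0185), as described above. At the BCAS3 promoter beside PPM1D it was higher by 1.08 ± 0.247 (0.00753), with percentiles of 66.1 and 71.5 at 0 h and 71.3 and 74.6 at 1 h in the RAD21 line, against the fall in WT. At the PIK3C2B promoter beside MDM4 it was lower, by −0.69 ± 0.195 (0.0222), with percentiles of 68.7 and 73.1 at 0 h and 64.4 and 66.1 at 1 h in the RAD21 line and of 55.9 and 61.0 at 0 h and 66.9 and 76.3 at 1 h in WT. All 4 calls were lost when peaks were ranked by fold, with the same direction. Over all alternatives the PIK3C2B call was kept under 8 and lost under 6, and the CCNG1 call was kept under 9 and lost under 5. Those at PPM1D and BCAS3 were each kept under 13 and lost under 1. With the form of the peak names as a term the differences were 1.18 at PPM1D (adjusted p = 6.37e-06), 0.50 at CCNG1 (0.0117), 0.78 at BCAS3 (0.00467) and −0.65 at PIK3C2B (0.0223).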

How the results depend on the processing

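Of 30 single-region calls, ranking by fold kept 2 and every direction, fitting only the lists compared kept 21, taking regions called in at least 5 of 10 lists (3 of 6 for H3K4me1) kept 26, and the form of the peak names as a term kept 24 of 26. The widest peak and the replicate block ended none. Same-numbered lists deviated together with correlations of −0.0501 to 0.0452, which show no shared deviation. With 2 lists a group, and mixed forms of name in WT at 1 h, they cannot settle whether the numbers pair the samples. With the replicate block the counts were 5 at 1 h in WT, 1 at 10 h, 5 from 1 h to 10 h, 7 in the RAD21 line, 2 and 3 between the lines at 0 h and 1 h and 4 for the difference of changes, and 1, 1 and 2 for H3K4me1. The causes of the changes below were not tested.

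Ranked by fold, 0 calls were left for H3K27ac in WT at 1 h, at 10 h and from 1 h to 10 h, in the RAD21 line at 1 h, between the lines at 1 h and for the difference of changes, and for H3K4me1 at 1 h and 10 h, with 1 from 1 h to 10 h. With only the lists compared the counts were 1 at 1 h, 2 at 10 h and 2 from 1 h to 10 h in WT, and 5 at 0 h and 0 at 1 h between the lines. The fit on regions called in fewer lists tested more regions of the windows and gave missing calls the lowest rank. Its counts rest in part on that rank. Of its 29448 regions in all, 4967 were called at 10 h, 7688 from 1 h to 10 h and 9498 between the lines at 0 h. In the windows its counts were 6 at 10 h, 10 from 1 h to 10 h and 7 between the lines at 0 h. With the form of the names the counts were 2 at 10 h. With 1 list left out they were 2 to 5 at 1 h, 0 to 1 at 10 h and 3 to 8 from 1 h to 10 h in WT, 3 to 4 in the RAD21 line, 1 to 2 and 1 to 5 between the lines at 0 h and 1 h and 2 to 6 for the difference of changes. For H3K4me1 they were 0 to 0 at 1 h, 0 to 1 at 10 h and 1 to 2 from 1 h to 10 h.

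With the stricter q-value the H3K27ac gains were 2 at 1 h and 6 at 10 h in WT and 0 in the RAD21 line, with 0 losses there, and the H3K4me1 gains and losses were 0 at both times. With peaks over at least 50% of the region, 1 H3K27ac gain was left at 1 h and 0 losses in the RAD21 line, and for H3K4me1 2 gains and 0 losses at 1 h and 1 gain at 10 h. With 1 list left out the H3K27ac gains were 5 to 18 at 1 h, 21 to 32 at 10 h and 6 to 11 in the RAD21 line, and the losses 0 to 1, 0 to 1 and 3 to 9. The H3K4me1 gains were 5 to 10 at 1 h and 5 to 10 at 10 h, and the losses 2 to 6 and 4 to 6.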
